A study of Mus musculus with 4 samples.

Results

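Integrins are the receptors by which cells hold on to their surrounding matrix, and laminins are the cross-shaped proteins that form the sheet-like basement membrane beneath endothelium and around muscle. The genes described here are the 40 gene symbols that encode integrin alpha subunits (17, leaving out the leukocyte subunit Itgam), integrin beta subunits 1 to 8 (8), laminin alpha, beta and gamma chains (11), and the linking proteins Nid1, Nid2, Hspg2 and Agrn (4). They were taken by symbol from the 23238 symbols of the deposited count files, and each was on a single row. All 40 matched a gene of GENCODE vM21 on GRCm38, and all 40 passed the filter on low counts, so none was lost from the test.

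The 4 libraries came from cultured mouse (Mus musculus) cells labelled as cavernous endothelial cells, from corpus cavernosum, the erectile tissue. The groups compared after 72 hours with glucose were normal glucose (2 libraries, replicates 1 and 2) and high glucose (2 libraries, replicates 2 and 4). Both groups shared a medium of M199 with serum, antibiotics and heparin. Mouse strain, age, genotype, glucose concentrations and an osmotic control are not stated in the labels, nor is it stated that replicates were separate cultures, so p-values measure the spread between these libraries only.

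An integrin is always a pair of 1 alpha and 1 beta subunit, and the pairing sets the ligand. Alpha 5 with beta 1 binds fibronectin, the alpha v pairs bind proteins that carry the short RGD motif, alpha 1 and 2 with beta 1 bind collagen, and alpha 3, 6 and 7 bind laminin. A laminin is a trimer of 1 alpha, 1 beta and 1 gamma chain. Nidogens and perlecan, the product of Hspg2, tie the laminin network to type IV collagen, and vessel walls are known for laminins built on the alpha 4 and alpha 5 chains.

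Depth ran from 46571770 to 74971589 counts per library. The label was checked against 14 endothelial markers, of which 8 had a mean under 1 CPM (counts scaled to library size after TMM). Their summed level was 71.6 and 92.1 CPM in normal and 57.8 and 62.2 CPM in high glucose, while 10 fibroblast markers summed to between 9758 and 11630 CPM. Defining endothelial genes were low in every library: Pecam1 lay between 2.32 and 3.58 CPM and Kdr between 1.0 and 1.41 CPM, and Cldn5 had no count in 3 of the 4 libraries. The marker levels go against the label of endothelial cells, and the libraries are called here by their glucose label. Normal glucose replicate 2 stood apart, with a Pearson correlation across genes of 0.978 with replicate 1 of its group, against 0.988 between the high glucose libraries.

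The integrin repertoire of these cells was dominated by few subunits. Per kilobase of exon, a scale that allows genes of different length to be compared, Itga5 (chromosome 15, 103344286 to 103366763), the fibronectin receptor subunit, had 143.9 and 171.9 CPM per kilobase in normal glucose and 127.4 and 139.7 CPM per kilobase in high glucose. It made up 63.0% to 68.5% of the summed alpha subunit level in the 4 libraries. Itgav, the alpha v subunit, followed with 13.5% to 16.3%, then the collagen-binding Itga2 with 7.81% to 10.7%. Itga6 and Itga3, both laminin-binding, averaged 3.82% and 3.7%, and the other 12 alpha subunits each averaged under 1% of the class. That order of the first 5 was the same with the length of the longest transcript in place of all exons.

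Among the beta subunits, Itgb1 (chromosome 8, 128685654 to 128733200), the partner of most alpha subunits, had 181.9 and 134.1 CPM per kilobase in normal and 127.1 and 163.9 CPM per kilobase in high glucose, or 57.2% to 68.6% of the class. Itgb5, which pairs with alpha v, held 27.3% to 38.0%. Itgb3, the other well-known alpha v partner, held only 1.7% to 2.01%. The summed level of the alpha class (202.1 to 250.9 CPM per kilobase) and of the beta class (222.2 to 265.3 CPM per kilobase) covered overlapping ranges.

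The leukocyte alpha subunits Itgal, Itgax, Itgad and Itgae were the 4 lowest of the 17 alpha genes per kilobase. Itgad and Itgae had 5 to 25 counts per library, Itgax 13 to 61 and Itgal 90 to 192, and 25.9% of the 32-base stretches of Itgad occur elsewhere, mainly in Itgax. Itgb2 and Itgb7, their beta partners, had 5.52 to 7.85 CPM and stood in the middle of the beta class. The platelet subunit Itga2b had 2.65 to 4.75 CPM.

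The laminin chains likewise had 1 leading gene per position, which together could build a vascular laminin of alpha 4, beta 1 and gamma 1 chains. Lama4 (chromosome 10, 38965515 to 39110188) made up 71.6% to 80.3% of the alpha chain level per kilobase, and Lama5, the other alpha chain typical of vessels, 14.8% to 23.9%. Lama2, Lama3 and Lama1 averaged 2.28%, 1.54% and 0.55%. Lamb1 held 60.2% to 62.3% of the beta chains and Lamb2 34.9% to 37.0%, and Lamc1 held 83.7% to 87.3% of the gamma chains. Assembled trimers were not measured.

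Among the linkers, Nid1, nidogen 1, was at the level of the leading integrins, with 157.8 and 194.6 CPM per kilobase in normal and 191.2 and 189.7 CPM per kilobase in high glucose. Hspg2, perlecan, had 77.2 to 125.2 CPM per kilobase in normal and 64.0 and 91.7 CPM per kilobase in high glucose, and Agrn, agrin, had 25.8 to 33.7 CPM per kilobase over the 4 libraries. Nid2 was far lower, at 1.6 to 2.14 CPM per kilobase.

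**Figure D1:**
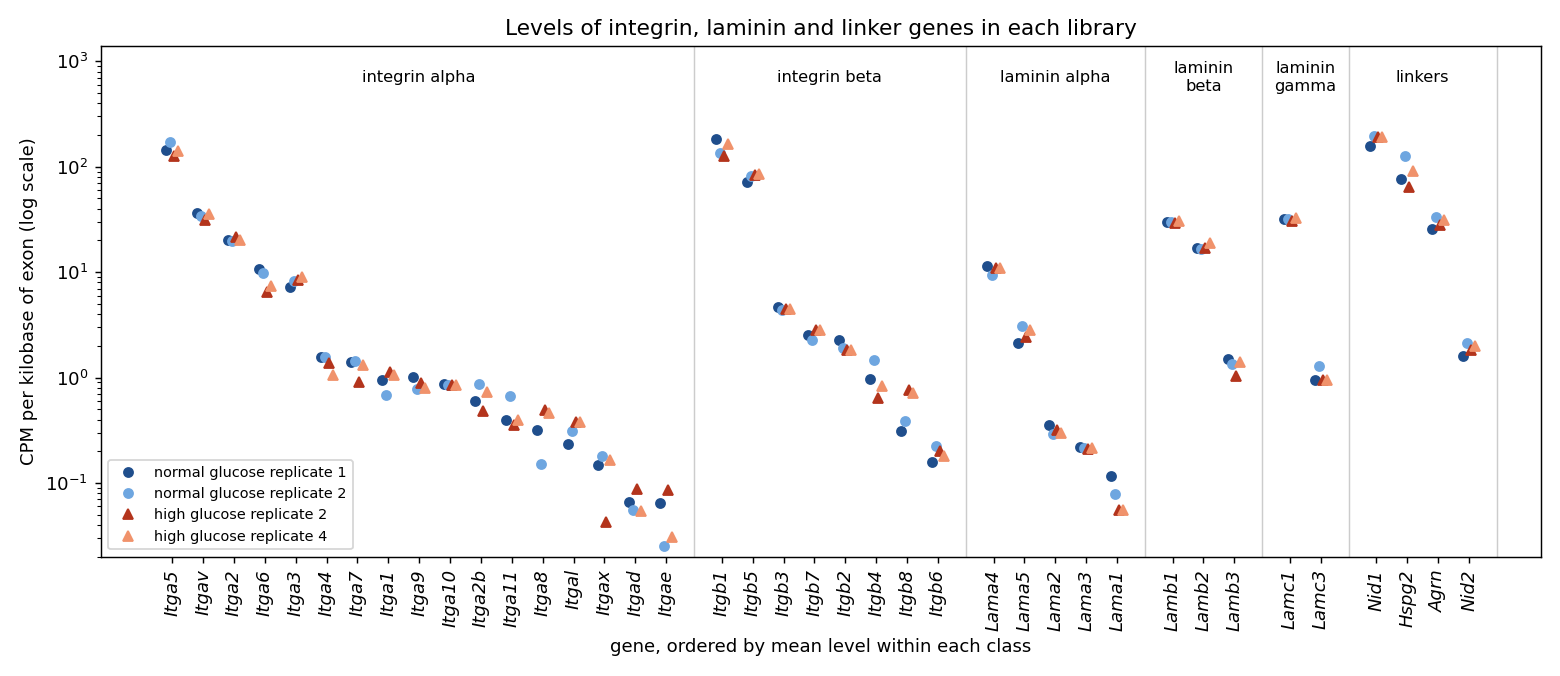
Level of 39 of the 40 genes in CPM per kilobase of exon (log axis) in each of the 4 libraries, grouped by class and ordered by mean level; circles are normal and triangles high glucose. Itga5, Itgb1 and Nid1 lead their classes, the 4 points of most genes lie close together, and Itgae and Itgad are lowest.

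High was then compared with normal glucose by edgeR's quasi-likelihood test, with Benjamini-Hochberg adjustment across the 16270 genes tested. None of the 40 genes passed an adjusted p of 0.05 (lowest adjusted p = 0.44), where 0.0123% of all genes tested passed. An unadjusted p under 0.05 was found for 5 of 40, where 5.45% of all genes tested had such a p: 2 were higher, Itgb8 and Itga8, and 3 were lower, Itga6 and Itgb4 among them. DESeq2 and edgeR's exact test each called 1 of the 40 at an adjusted p under 0.05, Itgb8. Of the 16270 genes tested, they called 74 and 112. With limma-voom, 0 of the 40 and 2 of all genes tested were called. The median log2 fold change was -0.022 over the 40 genes and -0.0045 over all genes tested. Above 0 were 18 of the 40 and below 0 were 22, against 8011 above and 8259 below over all genes tested. The groups did not overlap for 17 of the 40, 7 higher and 10 lower in high glucose, against 32.5% of all genes tested (16.3% higher and 16.2% lower). In these bulk samples, fewer cells of a type and less RNA per cell cannot be told apart.

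The leading laminin beta and gamma chains had nearly the same level in all 4 libraries. Lamb1 had 296.8 and 295.9 CPM in normal and 291.0 and 305.4 CPM in high glucose, with a log2 fold change of 0.0089 (SE 0.17). Lamc1 had 264.6 and 266.7 CPM in normal and 250.2 and 268.7 CPM in high glucose (log2 fold change -0.034, SE 0.17). Both groups overlapped for each gene, and the standard error leaves room for a change of that size in either direction.

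**Figure D2:**
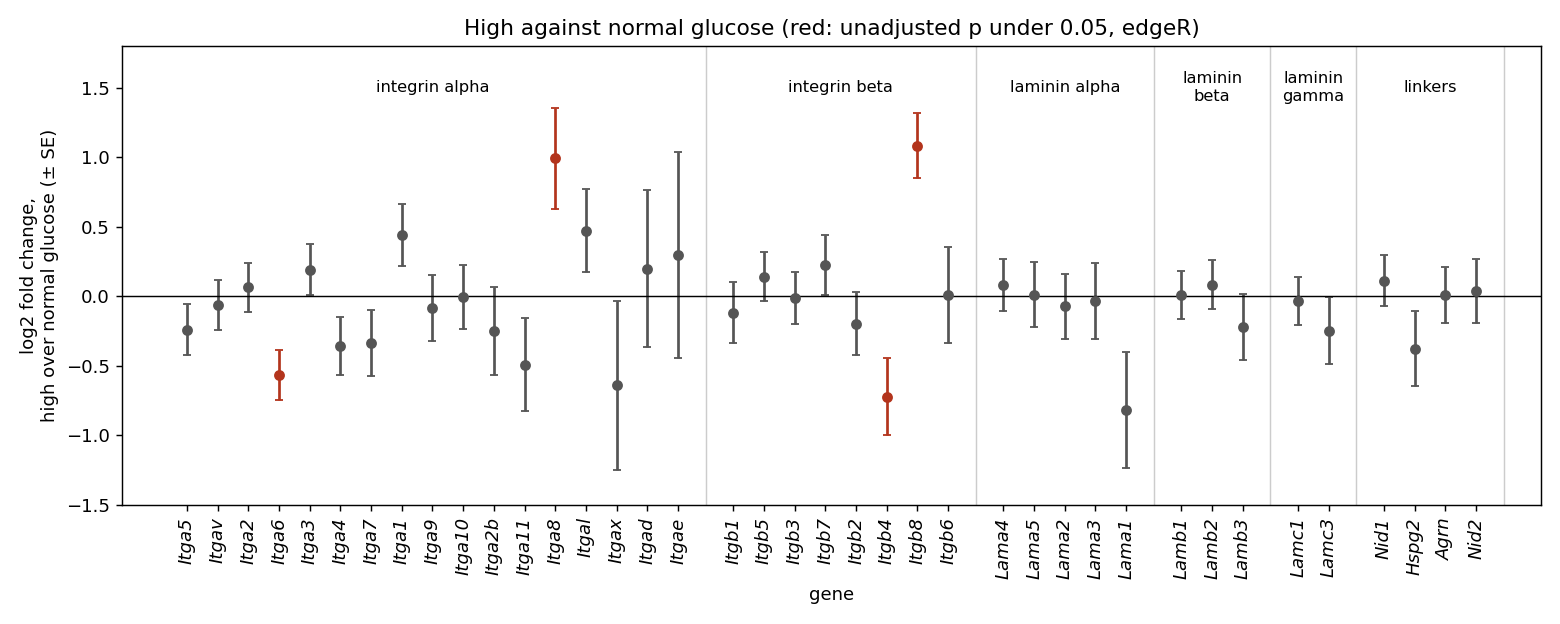
Log2 fold change of high over normal glucose from the edgeR fit for 39 of the 40 genes, with bars of 1 SE; red marks an unadjusted p under 0.05. Itgb8 and Itga8 stand near 1, Itga6 and Itgb4 lie below 0, and most laminin and linker genes lie close to 0.

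Itgb8 had the smallest p of the 40. It encodes the beta 8 subunit, which pairs with alpha v and is known for releasing active TGF-beta from its latent complex (chromosome 12, 119158022 to 119238802). It had 3.46 and 4.24 CPM in normal glucose (246 and 185 counts) and 8.41 and 7.87 CPM in high glucose (536 and 610 counts). Both high glucose libraries were above both normal ones, with a mean of 8.14 ± 0.386 against 3.85 ± 0.551 CPM (SD, n = 2 per group). The log2 fold change was 1.08 (SE 0.23), with an unadjusted p = 0.00151 and an adjusted p = 0.44 (edgeR). The adjusted p was 0.0342 with DESeq2 and 0.0214 with edgeR's exact test, and without a filter on low counts it was 0.0381. As each library was left out in turn, the log2 fold change ranged from 0.94 to 1.23.

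The beta 8 subunit remained a minor one. Per kilobase it was 0.404% and 0.443% of the summed alpha v partners Itgb3, Itgb5, Itgb6 and Itgb8 in normal glucose, and 0.847% and 0.782% in high glucose, a share chosen after the values were seen. Its partner Itgav had 387.3 and 363.4 CPM in normal and 334.5 and 383.1 CPM in high glucose, with overlapping groups (log2 fold change -0.065, SE 0.18). Itgb5 had 257.4 and 290.3 CPM in normal and 299.7 and 304.1 CPM in high glucose (log2 fold change 0.14, SE 0.18), so both high glucose libraries were above the normal ones by a small margin. Itgb3 lay between 25.6 and 27.4 CPM in all 4 libraries. Itgb6, which also activates TGF-beta with alpha v, had 1.13 and 1.61 CPM in normal and 1.44 and 1.29 CPM in high glucose.

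Itga8, an RGD-binding partner of beta 1 typical of mesenchymal cells (chromosome 2, 12106632 to 12301922), had 2.34 and 1.12 CPM in normal glucose (166 and 49 counts) and 3.63 and 3.37 CPM in high glucose (231 and 261 counts). The groups did not overlap. In CPM, however, the normal libraries differed from each other about as much as replicate 1 differed from the high glucose libraries. The log2 ratio of normal glucose replicate 2 to replicate 1 was -1.06. The log2 fold change was 0.99 (SE 0.36, unadjusted p = 0.0247, adjusted p = 0.812, edgeR). It was 1.63 without normal glucose replicate 1 and 0.58 without normal glucose replicate 2. Part of Itga8's exons (5.05%) overlaps an antisense gene, and the use of strand in counting is not stated.

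Itga6 and Itgb4 were lower in both high glucose libraries. Alpha 6 pairs with beta 4 in hemidesmosomes, the junctions that anchor epithelia to laminin. Itgb4 was far below Itga6, with a mean of 0.983 against 8.62 CPM per kilobase, and subunit pairs were not measured. Itga6 (chromosome 2, 71745616 to 71858416) had 96.9 and 88.9 CPM in normal and 58.2 and 67.0 CPM in high glucose. The groups did not overlap, with a log2 fold change of -0.57 (SE 0.18, unadjusted p = 0.0126, adjusted p = 0.679, edgeR). As each library was left out in turn, it ranged from -0.67 to -0.46. Itgb4 (chromosome 11, 115974709 to 116008412) had 6.86 and 10.3 CPM in normal and 4.49 and 5.89 CPM in high glucose. Its log2 fold change was -0.72, with SE 0.28, unadjusted p = 0.0298 and adjusted p = 0.831 (edgeR). Normal glucose replicate 2 was the highest, and the value was -0.99 without normal glucose replicate 1 and -0.40 without normal glucose replicate 2. An antisense gene overlaps 7.66% of the exons of Itgb4.

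Lama3 and Lamb3, an alpha and a beta chain known from epithelia, were scarce. Lama3 had 2.34 and 2.32 CPM in normal and 2.24 and 2.31 CPM in high glucose, and Lamb3 had 9.96 and 8.97 CPM in normal and 6.89 and 9.34 CPM in high glucose. The 4 levels of Lama3 were almost equal, and the groups of Lamb3 overlapped.

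The laminin-binding alpha subunits did not all have the same direction. Itga3 had 40.9 and 47.0 CPM in normal and 48.4 and 51.9 CPM in high glucose (log2 fold change 0.19, SE 0.18), and Itga7, the muscle laminin receptor, had 11.3 and 11.5 CPM in normal and 7.41 and 10.6 CPM in high glucose. As a share of Itga3, Itga6 and Itga7 per kilobase, Itga6 was 55.6% and 50.5% in normal and 40.7% and 41.6% in high glucose. With the longest transcript as length it was 66.7% and 62.2% against 53.4% and 53.8%. These shares were chosen after the values were seen.

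**Figure D3:**
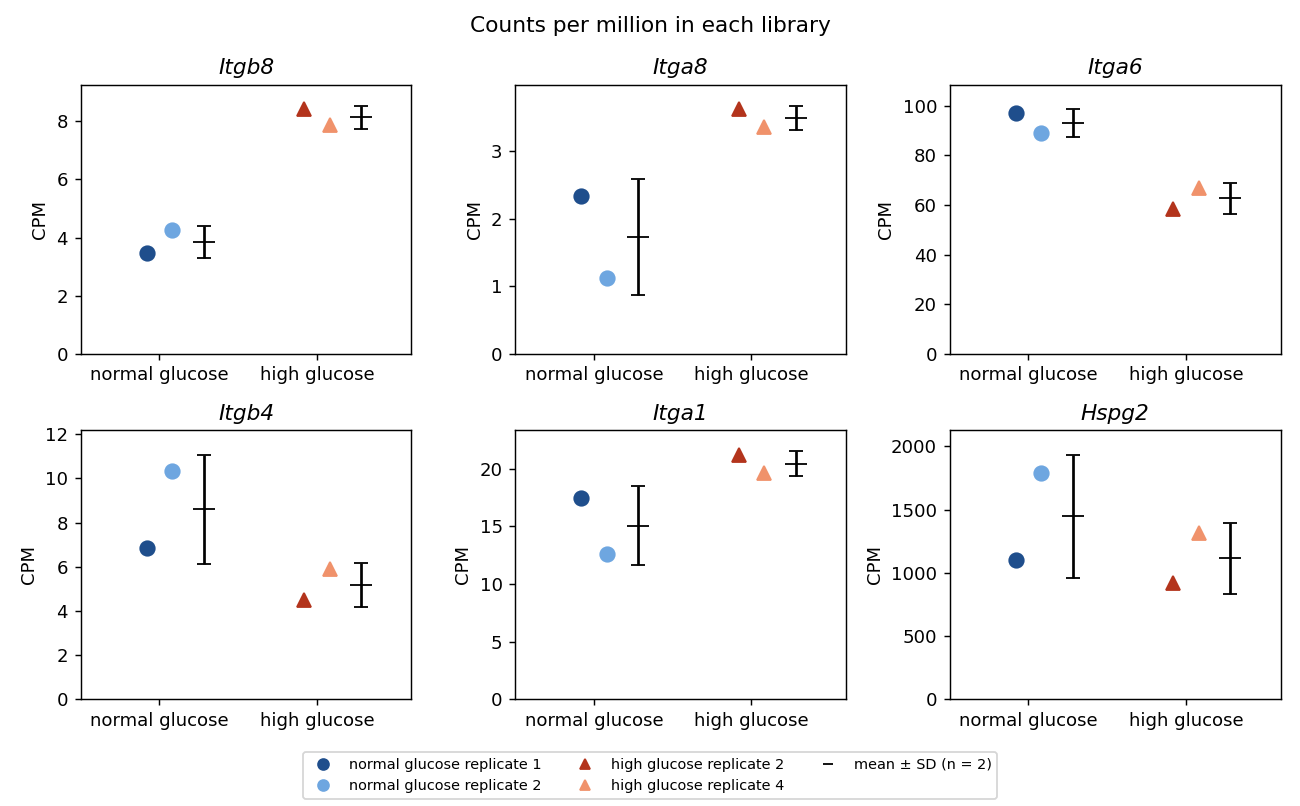
CPM of 6 genes in each library (circles normal, triangles high glucose), with the mean and SD of each group (n = 2) beside the points; each axis starts at 0. Itgb8 and Itga8 are higher and Itga6 and Itgb4 lower in both high glucose libraries, Itga1 is higher by a smaller margin, while the groups of Hspg2 overlap.

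Marker levels of several cell types were read beside these genes. The summed endothelial markers were lower in both high glucose libraries (57.8 and 62.2 against 71.6 and 92.1 CPM), as Itga6 and Itgb4 were. Of the 12 tested, 9 were below 0 and 3 above, and none was called by edgeR. Esam (33.3 and 46.1 CPM in normal against 25.6 and 29.9 CPM in high glucose) and Flt1 (20.3 and 24.4 against 13.6 and 14.5 CPM) made up most of the sum. The 3 above 0 were Kdr, Egfl7 and Nos3. Kdr was higher in both high glucose libraries (1.0 and 1.03 CPM in normal against 1.26 and 1.41 CPM in high glucose). The part of the endothelial markers in the result was not tested. Epithelial markers were low: all 6 summed to 2.1 to 3.32 CPM with overlapping groups. Krt18 was the highest, with 2.69 and 1.54 CPM in normal and 1.76 and 1.06 CPM in high glucose. Cdh1 followed, with 0.25 and 0.55 CPM in normal and 0.49 and 0.92 CPM in high glucose. Krt5 and Epcam stayed under 0.1 CPM in every library. The 10 markers of pericytes and smooth muscle summed to 527.3 and 745.5 CPM in normal and 526.5 and 534.9 CPM in high glucose, with 7 below 0 and 3 above. Normal glucose replicate 2 held the highest sum, as it held the highest Itgb4, Itga5 and Hspg2, and the part of these cells was not tested. None of the marker genes was at 0 in all 4 libraries.

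The remaining integrin receptors gave small differences. Itga5 had 709.9 and 848 CPM in normal and 628.5 and 689.1 CPM in high glucose, with the groups apart by a narrow margin (log2 fold change -0.24, SE 0.18). Itgb1 had 742.4 and 547.4 CPM in normal and 518.9 and 668.7 CPM in high glucose, so its 2 normal libraries spanned both high ones (log2 fold change -0.12, SE 0.22). Of the collagen receptors, Itga2 had 144.0 and 139.8 CPM in normal and 153.8 and 142.8 CPM in high glucose, and Itga1 had 17.5 and 12.6 CPM in normal and 21.2 and 19.7 CPM in high glucose. The log2 fold change of Itga1 was 0.44 (SE 0.22, unadjusted p = 0.0844, edgeR). It was 0.69 without normal glucose replicate 1 and 0.22 without normal glucose replicate 2. Itga10 and Itga11, the other collagen receptors, had means under 5 CPM, and the level of Itga10 is uncertain, since Gm42957, on the same strand, covers 33.5% of its exons and shares 31.7% of its 32-base stretches. Itga4, a subunit of a receptor for Vcam1 and fibronectin, had 21.8 and 22.0 CPM in normal and 19.2 and 14.9 CPM in high glucose. Its relative Itga9 lay between 5.96 and 7.7 CPM in all libraries.

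Leukocyte subunits divided in direction. Itgal was higher in both high glucose libraries (1.55 and 2.06 against 2.51 and 2.48 CPM) and so was Itgb7 (7.07 and 6.35 against 7.85 and 7.85 CPM), while Itgb2, the partner of Itgal, was lower (6.89 and 5.8 against 5.52 and 5.54 CPM). None had an unadjusted p under 0.05. The 8 leukocyte markers summed to 65.8 and 69.4 CPM in normal and 74.2 and 72.1 CPM in high glucose, with 4 of the 6 tested above 0 and Cd3e at or near 0, and their part was not tested. The pan-leukocyte gene Ptprc had 1.28 and 0.642 CPM in normal and 0.408 and 1.24 CPM in high glucose.

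For Lama4, Lama5 and the 4 linkers the groups overlapped. Lama4 had 138.4 and 112.5 CPM in normal and 131.8 and 133.1 CPM in high glucose (log2 fold change 0.078, SE 0.19), and Lama5 had 24.1 and 35.4 CPM in normal and 27.6 and 32.1 CPM in high glucose. In both, the normal libraries spanned the high ones. Lama1, the embryonic alpha chain, was counted 80 and 33 times in normal and 34 and 42 times in high glucose, or 1.13 and 0.757 against 0.534 and 0.542 CPM (log2 fold change -0.82, SE 0.42). Lamb2 had 103.8 and 101.6 CPM in normal and 102.4 and 115.0 CPM in high glucose.

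Hspg2 varied most among the abundant genes. It had 1104 and 1791 CPM in normal and 915.8 and 1312 CPM in high glucose, and the fitted log2 difference was -0.38 (SE 0.27, adjusted p = 0.991 by edgeR). The groups overlapped, and the value was -0.69 without normal glucose replicate 1 and 0.012 without normal glucose replicate 2. Nid1 had 1095 and 1351 CPM in normal and 1327 and 1317 CPM in high glucose (log2 fold change 0.11, SE 0.18). Agrn, which organises receptors at synapses and binds laminin, had 239.5 and 312.5 CPM in normal and 262.5 and 292.0 CPM in high glucose. Nid2 had 8.28 and 11.1 CPM in normal and 9.38 and 10.4 CPM in high glucose, and the normal libraries of both genes again spanned the high ones. The median absolute log2 ratio of the 2 normal libraries was 0.29 over the 40 genes and that of the high glucose libraries 0.12. The median absolute log2 fold change between groups was 0.20, which compares 2 libraries with 2, where each ratio compares single libraries. Over all genes tested these values were 0.35, 0.18 and 0.19.

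**Figure D4:**
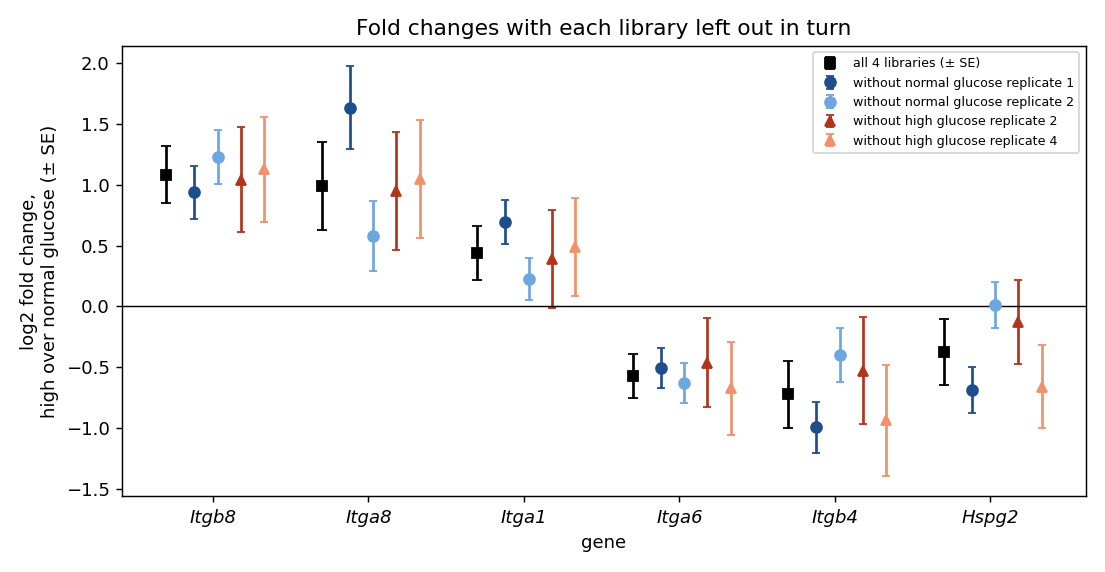
Log2 fold change (± SE) of 6 genes with all 4 libraries (black squares) and with each library left out in turn. The groups of Itgb8, Itga8, Itga1, Itga6 and Itgb4 do not overlap, so leaving out a library could not reverse their sign. Hspg2 goes from -0.69 to 0.012 with the normal glucose library that is left out.

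Genes that work with integrins and laminins were read from the same fit, in 3 lists. Of 40 adaptors and focal adhesion proteins, which tie integrin tails to actin, none passed the adjusted threshold in edgeR, DESeq2, the exact test or limma-voom. Of these 40, 31 were below 0 and 9 above, with a median log2 fold change of -0.16. Over all genes tested, 8259 were below 0 and 8011 above, with a median of -0.0045. An unadjusted p under 0.05 in edgeR was found for 4 of these 40, all lower, against 2.22% higher and 3.23% lower of all genes tested. Tgfb1i1, the paxillin relative Hic-5, had 104.9 and 187.6 CPM in normal and 79.0 and 82.0 CPM in high glucose (log2 fold change -0.86, SE 0.27). Lims2, a partner of integrin-linked kinase, had 20.3 and 32.7 CPM in normal and 17.0 and 14.5 CPM in high glucose. Zyx, zyxin, had 376.2 and 782.2 CPM in normal and 296.0 and 365.3 CPM in high glucose. In all 3 genes, normal glucose replicate 2 was far above the other libraries. The abundant filamin Flna had 1481 and 1340 CPM in normal and 1257 and 1247 CPM in high glucose, a narrow separation (log2 fold change -0.17, SE 0.17).

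Of 28 other basement membrane and laminin receptor genes, none passed the adjusted threshold in any of those tests. None had an unadjusted p under 0.05 in edgeR, where 5.45% of all genes tested did. Of the 28, 24 were below 0 and 4 above (median -0.15), against 8259 below and 8011 above over all genes tested. Dag1, dystroglycan, a laminin receptor outside the integrin family, had 212.4 and 263.8 CPM in normal and 181.7 and 201.1 CPM in high glucose (log2 fold change -0.31, SE 0.19). Sparc, a collagen-binding protein, had 1978 and 2099 CPM in normal and 1674 and 1918 CPM in high glucose, and Smoc2 had 824.6 and 1007 CPM against 768.3 and 796.6 CPM. Smoc1 had 10.6 and 11.1 CPM against 8.99 and 8.02 CPM. Col17a1, a hemidesmosomal collagen, had 1.24 and 3.1 CPM in normal and 1.08 and 1.08 CPM in high glucose.

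Of 30 other integrin ligands and surface partners, 28 were tested. None passed in edgeR or limma-voom, while DESeq2 and the exact test each called Ctgf and Cyr61. Of the 16270 genes tested, those 2 tests called 74 and 112. Of the 28, 18 were below 0 and 10 above, against 8259 below and 8011 above over all genes tested, and the median was -0.14. At an unadjusted p under 0.05 in edgeR, 1 was higher and 3 were lower, against 2.22% higher and 3.23% lower of all genes tested. Ctgf, Cyr61 and Thbs1, matrix proteins that bind integrins, were the 3 lower ones, with log2 fold changes of -1.38, -0.89 and -0.62 (SE 0.27, 0.21 and 0.17). Ctgf had 369.9 and 657.9 CPM in normal and 199.2 and 195.8 CPM in high glucose. Cyr61 had 459.1 and 628.5 CPM against 285.0 and 300.1 CPM, and Thbs1 had 5889 and 5803 CPM against 3870 and 3730 CPM. For Ctgf and Cyr61, normal glucose replicate 2 was well above replicate 1. Vcam1, the ligand of alpha 4 integrin, was the higher one, with a log2 fold change of 0.60 (SE 0.19). It had 373.3 and 315.9 CPM in normal and 551.5 and 496.8 CPM in high glucose, while Itga4 was lower in both high glucose libraries, as given above. The most abundant ligands had overlapping groups: Spp1, osteopontin, had 23070 and 18520 CPM in normal and 27680 and 22990 CPM in high glucose, and Fn1, fibronectin, had 12910 and 22130 CPM against 13400 and 14290 CPM.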

How the data were processed

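Each library has 1 file of raw counts per gene symbol, deposited by the authors (23282 rows, 23238 symbols in each). TopHat, edgeR and mm10 appear in the submitters' processing notes with no version or role. How reads were counted, with which annotation and whether by strand, is not stated there or in the labels. Rows sharing a symbol (35 symbols) were summed. Genes were tested with edgeR 4.0.16 (R 4.3.3, limma 3.58.1), with TMM scaling, filterByExpr (minimum count 10), the legacy quasi-likelihood method and group as the only term, two-sided. The standard error is the fold change divided by the square root of the F statistic. The script was tested on simulated data. CPM per kilobase divides the scaled CPM by the union of GENCODE vM21 exons, and shares were taken within each class. Depth was 46571770 to 74971589 counts, and intervals were not computed.

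The members and gene lists were chosen with earlier results of these data known. Values in each library were given for genes with an unadjusted p under 0.05, the 3 highest per class by length-scaled level, all 4 linkers, and the 3 largest changes with at least 5 CPM; from each further list, the 3 smallest p and the 2 highest levels. Other genes, such as Lama4, Itga1, Itga3 and Vcam1, were named after their values were seen. Alternatives were other scalings, tests (limma-voom, DESeq2 1.42.0, the exact test of edgeR), filters, gene lengths and a threshold of 0.1, leaving out each library, and, added after seeing the data, edgeR's newer quasi-likelihood method. Promoter sequences were not printed, since the counts do not bear on them. Itga1 was chosen for the plots after its values were seen. Some genes of these lists are not reported here.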

Additional observations from a re-analysis of the deposited data

How the results depend on the processing

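No paired analysis was possible because replicate number 2 is the only one that both groups have. The number of the 40 genes called was 0 as reported, 1 with DESeq2, with the exact test and without a filter (Itgb8 each time), and 0 to 6 as each library was left out. The highest count came without normal glucose replicate 1, the fit that also gave the highest count over all genes tested. That count is therefore no result about these 40 genes. A group reduced to 1 library is assumed to vary like the other group. Over all genes tested the count was 2 as reported, 74 with DESeq2, 112 with the exact test, 127 without a filter, and 32 to 2667 with a library left out (2667 and 157 without normal glucose replicates 1 and 2, 32 and 36 without high glucose replicates 2 and 4). With upper quartile scaling and at the threshold of 0.1 it was 3. The causes were not tested.

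The median log2 fold change of integrin alpha subunits was -0.065 as reported, -0.046 with upper quartile scaling, -0.026 with library size alone and -0.072 to 0.016 with a library left out. That of integrin beta subunits was -0.0010, 0.041 with library size alone and 0.027 to 0.048 with a library left out. Such ranges were -0.086 to -0.0013 for laminin chains (reported -0.034) and -0.17 to 0.23 for linkers (reported 0.021). With the longest transcript as length, the share of Itga5 was 59.4% (64.8% as reported), of Lama4 86.0% (76.7%), of Lamb1 71.4% (61.6%) and of Lamc1 81.1% (85.3%).

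Among the genes refitted, 11 changed sign under some alternative. Itgb3 was -0.011 as reported and 0.0076 and 0.025 with upper quartile scaling and library size alone, and Lamc1 was -0.034 and 0.0065 with library size alone. With a library left out, the ranges were -0.17 to 0.21 for Agrn, -0.69 to 0.012 for Hspg2, -0.17 to 0.040 for Itgav, -0.32 to 0.12 for Itgb1, -0.062 to 0.040 for Itgb3, -0.026 to 0.054 for Lamb1, -0.0046 to 0.17 for Lamb2, -0.086 to 0.027 for Lamc1, -0.031 to 0.27 for Nid1, -0.16 to 0.26 for Nid2 and -0.065 to 0.24 for Lama4. Itgb8, Itga8, Itga6 and Itgb4 kept their sign in all 13 alternatives run. Their groups did not overlap, so leaving out a library could not have reversed the sign, and those fits do not test it. Counts were lowest for Itgad, Itgae, Itgax and Lama1.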
